A study of Mus musculus with 6 samples.

Results

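The complement genes measured here were C1qa, C1qb and C1qc, C3, Cfb, C3ar1, C5ar1, Itgam and Itgb2, 9 of the 23462 mouse genes that could be matched to probes of the arrays. They were chosen by name as complement components and receptors of microglia, and every probe whose accession matched one of them was kept, which gave 12 of the 56605 probes. The 6 arrays held RNA of BV2 cells, an immortalized mouse microglial line, all treated with LPS, 3 without PGC-1α overexpression (control) and 3 with PGC-1α overexpression. In the cell culture methods the cells overexpressed PGC-1α from a lentiviral vector named for a Ubi promoter, a negative control virus was also made, puromycin selected the PGC-1α-overexpressing cells, and LPS was given at 500 ng/ml for 6 h, but those methods do not name the arrays, and whether the control arrays come from virus-treated cells is not given in the sources used here. Separate cultures are not stated either, so the p-values measure the spread between these samples, which may be technical.

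Complement is a cascade of plasma and locally made proteins that tags targets and calls phagocytes. C1q, built of the chains encoded by C1qa, C1qb and C1qc, starts the classical pathway, and all branches meet at C3, which the alternative pathway cleaves with the protease factor B (Cfb). The released fragments C3a and C5a act on the receptors C3ar1 and C5ar1, while target-bound C3 fragments are recognized by complement receptor 3, a pair of integrin chains encoded by Itgam (CD11b) and Itgb2 (CD18). Microglia are a main source of C1q in the brain, and they use complement receptor 3 in phagocytosis.

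The starts of C1qb and C1qc are shown because these neighbouring genes, with C1qc lying between C1qb and C1qa in the annotation, differed in that C1qb passed the test and the probe of C1qc was near background, and those of C3ar1 and C5ar1 because both receptors had lower signal with PGC-1α. Each sequence holds the 250 bases before the gene start from RefSeq (GRCm38.p6), written 5′ to 3′ on the strand of the gene, with capitals for matches on either strand to the letters of the motifs described next.
C1qb (chr4:136886201-136886450, minus strand): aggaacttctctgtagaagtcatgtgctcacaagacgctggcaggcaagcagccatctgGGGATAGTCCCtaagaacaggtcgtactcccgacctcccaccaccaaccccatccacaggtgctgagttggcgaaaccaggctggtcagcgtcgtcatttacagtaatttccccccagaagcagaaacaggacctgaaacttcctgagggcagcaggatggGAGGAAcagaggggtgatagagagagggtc
C1qc (chr4:136892915-136893164, minus strand): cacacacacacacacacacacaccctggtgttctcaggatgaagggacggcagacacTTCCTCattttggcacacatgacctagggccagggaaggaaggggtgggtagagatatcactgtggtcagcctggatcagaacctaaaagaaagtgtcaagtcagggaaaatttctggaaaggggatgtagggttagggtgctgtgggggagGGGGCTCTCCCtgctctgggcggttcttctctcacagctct
C3ar1 (chr6:122856158-122856407, minus strand): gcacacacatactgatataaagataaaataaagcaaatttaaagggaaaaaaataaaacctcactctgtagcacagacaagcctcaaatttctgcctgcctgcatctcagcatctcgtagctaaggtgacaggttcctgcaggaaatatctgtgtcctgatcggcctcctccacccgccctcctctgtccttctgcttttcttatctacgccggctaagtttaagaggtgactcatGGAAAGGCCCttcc
C5ar1 (chr7:16259339-16259588, minus strand): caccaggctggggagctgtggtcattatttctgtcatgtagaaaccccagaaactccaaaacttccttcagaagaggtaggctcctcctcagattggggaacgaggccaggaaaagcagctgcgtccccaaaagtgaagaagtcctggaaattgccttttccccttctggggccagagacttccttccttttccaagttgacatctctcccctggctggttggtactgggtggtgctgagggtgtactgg
RefSeq sequences were found for 6 of the 9 genes. The motifs searched on both strands were NF-κB (GGG, 5 bases of any kind, CC), GAGGAA for PU.1 and other ETS factors, IRF (GAAA on either side of 2 bases of any kind), TTCNNNGAA for STAT and AAGGTCA for ERR. The NF-κB letters matched in 5 of the 6 (C1qb, C1qc, C3, C3ar1 and Itgam) and in 45.8% of all 32851 sequences, and the PU.1 letters in 3 (C1qb, C1qc and Itgam) and in 23.3% of all. The IRF, STAT and ERR letters had no match in the 6, against 2.98%, 7.02% and 4.08% of all. No motif was found before C5ar1. Overlapping matches of the NF-κB letters on the opposite strands were joined in the capitals.

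A short account of all probes gives the scale for the members. Levels are log2 intensities relative to the 75th percentile of the array, so that a level of -1 lies 1 doubling under it, and log2 fold changes are PGC-1α overexpression minus control. The arrays with PGC-1α were the dimmer ones, with 75th percentiles of 856 to 1268 against 1617 to 1893 in the control group. Of 38919 probes tested with limma, 53.8% passed an adjusted p of 0.05, 35.4% upward and 18.4% downward, and the median log2 fold change was 0.25. After quantile normalization, which gives all arrays the same distribution, 41.7% passed, 21.8% upward and 19.8% downward, and the median was 0.06. In 63.6% of the 37314 probes with values on every array the groups did not overlap. An exact permutation test, two-sided, cannot go below p = 0.1 with 3 arrays in each group. The first probe of the targeted gene Ppargc1a, at -6.21, -6.37 and -7.71 on control arrays and -5.70, -5.28 and -5.90 with PGC-1α, was well above background on 2 of 3 arrays of each group. The second read -6.84, -6.33 and -7.10 against -7.00, -6.11 and -6.40, so the gene gave no firm check of the labels. Of 10 microglia and macrophage markers 9 were well above background on every array, and Cx3cr1 was so on none. Of their 12 tested probes 6 were higher and none lower, and after quantile normalization 1 was higher and 1 lower. Among markers of other cell types, those of fibroblasts had the highest share of changed probes after scaling to the 75th percentile, with 6 of 8 higher and 1 lower. After quantile normalization 4 of the 8 were higher and 2 lower. Relative to the 75th percentile, their summed level was 4.29 to 4.43 on control arrays and 5.05 to 5.37 with PGC-1α. The bright Col1a1 probes A_52_P525107 and A_55_P2118520 did not pass after quantile normalization (limma adjusted p = 0.051 and 0.15). Of the tested probes for astrocytes 3 of 5 were higher, for neurons 2 of 4 with 1 lower, for oligodendrocytes 1 of 5 and for endothelium 1 of 2. After quantile normalization 2 were higher for astrocytes and 1 for oligodendrocytes. Neurons and endothelium then each had 1 higher and 1 lower. The part of these cell types in the results was not tested.

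Of the 12 complement probes 11 passed the filter on low values, covering 8 of the 9 genes, and 7 of the 11 passed the threshold, 4 upward (C1qa, C1qb, and 1 probe each of Cfb and Itgam) and 3 downward (C5ar1, C3ar1 and the other Cfb probe). The share called over all probes was 53.8%. The median log2 fold change of the 11 was 0.09, beside 0.25 over all probes, and -0.01 beside 0.06 after quantile normalization, where 7 passed as well, 3 upward and 4 downward, beside 41.7% of all probes. In 6 probes the call and its direction were shared by both scalings. They were C1qa, C1qb, the first Cfb probe, the second Cfb probe, C3ar1 and C5ar1. In the plot of levels by array, the groups of 8 of the 11 tested probes do not overlap, beside 63.6% of all probes.

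**Figure D1:**
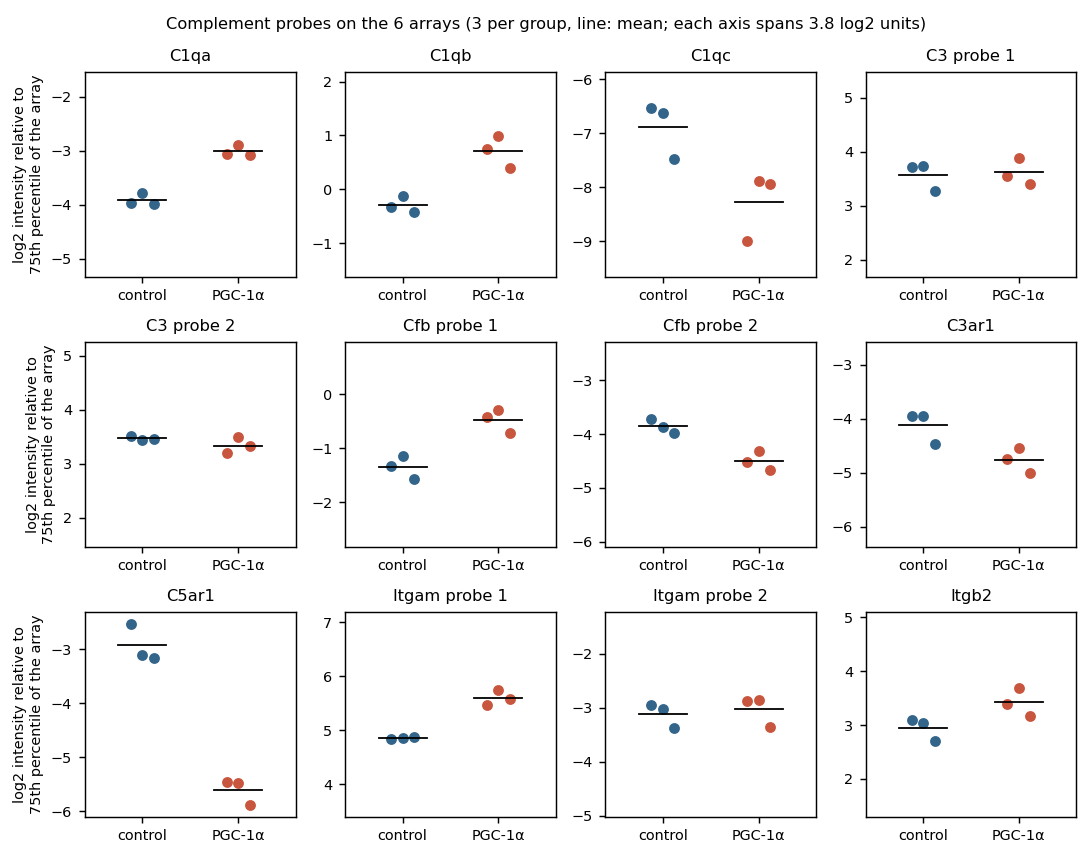
Log2 intensity relative to the 75th percentile of the array (vertical axis) for the 12 complement probes, with 1 point for each of 3 control arrays (blue) and 3 PGC-1α overexpression arrays (red) and a line at the group mean. C5ar1 has the widest gap, from -2.93 on average in the control group to -5.61 with PGC-1α, C1qa and C1qb lie higher with PGC-1α, and the groups of both C3 probes overlap.

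Among the components of the classical pathway, C1qa and C1qb rose. C1qa (NM_007572), the A chain of C1q, was at -3.97, -3.78 and -3.98 in the control group, against -3.06, -2.90 and -3.08 with PGC-1α. The 3 arrays with PGC-1α all lay above the 3 without. The log2 fold change was 0.90 (SE 0.13, limma adjusted p = 0.0018), a 1.86-fold rise. The intensities before scaling, 103 to 120 and 115 to 150, overlapped. C1qb (NM_009777), the B chain, was at -0.34, -0.12 and -0.43 in the control group, against 0.74, 0.98 and 0.40 with PGC-1α. Here too every overexpression array lay above every control array, by a log2 fold change of 1.00 (SE 0.18, limma adjusted p = 0.0037), or 2.00-fold. Its intensity before any scaling, 1281 to 1493 on control arrays and 1668 to 1936 with PGC-1α, did not overlap either, although the overexpression arrays were dimmer as a whole. In RNA of a whole culture, a change in the share of cells that express a gene and a change in RNA per cell cannot be told apart.

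The difference between the C1qb and C1qa probes within an array is the same under any scaling to a percentile. It was 3.62 ± 0.06 (SD, n = 3) in the control group and 3.72 ± 0.21 (SD, n = 3) with PGC-1α (exact permutation test, two-sided p = 0.5), and these values overlapped. C1qa changed by 0.78 and C1qb by 0.99 after quantile normalization, and both kept their direction and passed in all 19 alternatives, C1qa with 0.46 to 0.96 and C1qb with 0.87 to 1.16. On slide 1, with 2 arrays of each group, they were 0.90 and 1.09, and on slide 2, with 1 of each, 0.90 and 0.82.

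The C chain gave no usable reading. C1qc (NM_007574) was at -6.53, -6.63 and -7.48 in the control group, against -8.99, -7.89 and -7.94 with PGC-1α, and only the first control array was well above background. The intensities were 10.6 to 17.6 and 2.27 to 5.18. The probe was not tested, and no fold is given, since the control mean of -6.88 lay under the mean bound of -6.30 set by the dimmest probes well above background with PGC-1α. Where the probe binds in the transcript is not known here.

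C3, the protein on which all branches converge, showed no change that held under every scaling. Its first probe (A_51_P110301) was at 3.72, 3.74 and 3.27 in the control group, against 3.56, 3.89 and 3.41 with PGC-1α. The groups overlapped, with a log2 fold change of 0.04 (95% interval -0.40 to 0.48, limma adjusted p = 0.87). The second probe (A_55_P2038525), which has the same accession (NM_009778), was at 3.52, 3.45 and 3.46 and at 3.20, 3.49 and 3.32. Its log2 fold change was -0.14 (95% interval -0.45 to 0.17, limma adjusted p = 0.40).

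The reading of C3 depended on the scaling. After quantile normalization the first probe gave -0.45 (95% interval -0.94 to 0.03, limma adjusted p = 0.11) and the second -0.60 (95% interval -0.91 to -0.29, limma adjusted p = 0.0098), so that the second passed as lower. The unscaled intensities of the second probe were 17750 to 20878 on control arrays and 9633 to 12675 with PGC-1α. On slide 1 and slide 2 the first probe gave -0.0054 and 0.13, and the second -0.14 and -0.14. The second probe minus the first was -0.10 ± 0.26 (SD, n = 3) and -0.28 ± 0.17 (SD, n = 3) within control and overexpression arrays (exact permutation test, two-sided p = 0.5), with overlap.

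Cfb, the factor B of the alternative pathway, was measured by 2 probes that moved in opposite directions. The first (A_51_P413866, NM_008198) was at -1.34, -1.14 and -1.57 in the control group, against -0.42, -0.29 and -0.73 with PGC-1α. It rose by 0.87 (SE 0.17, limma adjusted p = 0.0052), with no overlap between the groups. The second (A_66_P138911, NM_001142706, another transcript of the gene) was at -3.72, -3.87 and -3.99 in the control group, against -4.52, -4.31 and -4.67 with PGC-1α. It fell by 0.64 (SE 0.15, limma adjusted p = 0.0096), and its groups did not overlap either.

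The difference between the probes on 1 array is the same under any scaling to a percentile, and shows a relative change only. Within an array, the first Cfb probe exceeded the second by 2.38, 2.72 and 2.42 in the control group and by 4.10, 4.02 and 3.94 with PGC-1α. All 3 differences with PGC-1α were larger, by 1.51 on average. This separation follows from the opposite moves of the probes, each without overlap between the groups. The exact permutation test could therefore only give its smallest value (two-sided p = 0.1, and 0.2 after adjustment over the 6 pairs of probes compared). It adds no support to those moves, and the pair was chosen after the values were seen. The unscaled intensities of the first probe, 638 to 736 on control arrays and 698 to 866 with PGC-1α, overlapped. The first probe kept its call in all 19 alternatives, at 0.76 to 1.00, and was 0.89 on slide 1 and 0.84 on slide 2. The second, at -0.62 and -0.68 on the slides, kept its sign but did not pass with normexp background correction, which adds an offset of 50 intensity units to signals that were 43.2 to 123 here, and the 75th percentile (-0.07, limma adjusted p = 0.68). Which of the transcripts each probe detects was not tested. C2, the neighbouring gene of the classical pathway, fell by 0.51 (limma adjusted p = 0.025), and was -0.48 after quantile normalization (limma adjusted p = 0.058).

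**Figure D2:**
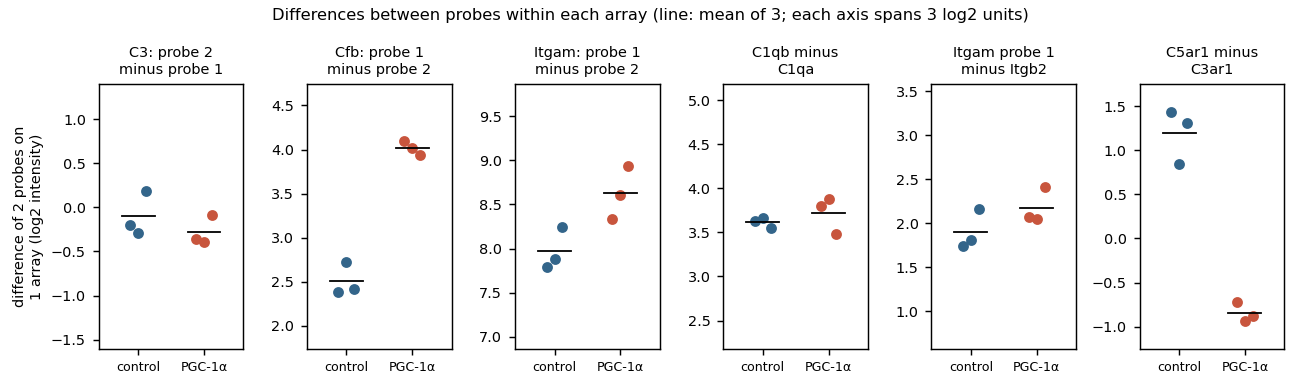
Difference in log2 intensity between 2 probes on the same array (vertical axis) for 6 pairs of complement probes, with 1 point for each of 3 control (blue) and 3 PGC-1α overexpression arrays (red) and a line at the group mean. The groups do not overlap for the Cfb probes, the Itgam probes and C5ar1 against C3ar1, and they overlap for the C3 probes, C1qb against C1qa and Itgam against Itgb2. The differences hold under any scaling to a percentile, but quantile normalization can change them.

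Both anaphylatoxin receptors were lower with PGC-1α overexpression. C5ar1 (NM_001173550), the receptor of C5a, was at -2.52, -3.10 and -3.16 in the control group, against -5.45, -5.47 and -5.89 with PGC-1α. All control arrays lay above all overexpression arrays. The log2 fold change was -2.68 (SE 0.21, limma adjusted p = 1.4e-04), which is 6.39-fold lower (95% interval 4.55 to 8.98), and 0.74% of the tested probes had a larger absolute change. The unscaled intensities were 281, 190 and 211 on control arrays and 26.4, 19.2 and 21.4 with PGC-1α, where the probe was well above background on 2 of 3. It met the filter only through the control group, where it was higher. The fold, its interval and its rank therefore rest on dim values with PGC-1α.

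C5ar1 kept its direction and passed in all 18 alternatives in which it was tested. The size depended on the background correction, with -0.90 under normexp scaled to the 75th percentile and -1.24 under normexp followed by quantile normalization. All others gave -2.47 to -2.84. The fall was -2.65 on slide 1 and -2.72 on slide 2. The related receptor C5ar2, which also binds C5a and was listed among the other complement genes, was at -2.83, -2.87 and -2.90 in the control group, against -4.15, -3.83 and -4.40 with PGC-1α. It fell by 1.26 (SE 0.17, limma adjusted p = 0.0011), and again the groups did not overlap.

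C3ar1 (NM_009779), the receptor of C3a, was at -3.95, -3.94 and -4.47 in the control group, against -4.74, -4.54 and -5.01 with PGC-1α. The lowest control array and the highest overexpression array lay next to each other without overlap. It fell by 0.64 (SE 0.20, limma adjusted p = 0.027) and by 0.82 after quantile normalization (limma adjusted p = 0.010). The call was lost without control replicate 1 (-0.55, limma adjusted p = 0.084) or 2 (-0.55, adjusted p = 0.090), and without overexpression replicate 1 (-0.65, adjusted p = 0.069) or 3 (-0.52, adjusted p = 0.074). It was also lost without a filter (adjusted p = 0.058) and with normexp and the 75th percentile (-0.07, adjusted p = 0.74). The change was -0.69 on slide 1 and -0.53 on slide 2. Within an array the C5ar1 probe exceeded that of C3ar1 by 1.19 ± 0.31 (SD, n = 3) in the control group and lay under it by a difference of -0.84 ± 0.11 (SD, n = 3) with PGC-1α, a shift of -2.04 (exact permutation test, two-sided p = 0.1, adjusted 0.2). That p is the smallest the test can give. The pair was chosen after the values were seen, so the test adds no support.

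The chains of complement receptor 3 gave a reading that turned on the scaling. The first Itgam probe (A_55_P1977934, NM_001082960) was at 4.84, 4.85 and 4.87 in the control group, against 5.47, 5.75 and 5.58 with PGC-1α. The groups did not overlap and the log2 fold change was 0.75 (SE 0.13, limma adjusted p = 0.0034). After quantile normalization it was 0.13 (95% interval -0.15 to 0.41, limma adjusted p = 0.41), and it was 0.14 with the authors' values (adjusted p = 0.29) and 0.13 with normexp and quantile normalization (adjusted p = 0.33). Its unscaled intensities, 46295 to 55205 and 45984 to 60868, overlapped. On slide 1 and slide 2 the change was 0.76 and 0.72. The summed level of the 10 microglia and macrophage markers was 6.30 to 6.69 on control arrays and 6.76 to 7.03 with PGC-1α. These sums do not cover the same probes on every array. The bright Cd68 probe A_51_P120470 has values on control arrays 2 and 3 and overexpression array 3 only. After quantile normalization 1 of the 12 tested marker probes was higher and 1 lower. The part of these markers in the Itgam result was not tested.

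The second Itgam probe (A_55_P1977926, NM_008401) was at -2.95, -3.03 and -3.38 in the control group, against -2.87, -2.86 and -3.35 with PGC-1α. These values overlapped, with a log2 fold change of 0.09 (95% interval -0.34 to 0.53, limma adjusted p = 0.69). The first probe exceeded the second by 7.97 ± 0.24 (SD, n = 3) within the control arrays and by 8.63 ± 0.30 (SD, n = 3) within the overexpression arrays, without overlap (exact permutation test, two-sided p = 0.1, adjusted 0.2). That p is the smallest the test can give, and the pair was chosen after the values were seen. After quantile normalization the first probe changed by 0.13 and the second by -0.01, and neither passed.

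Itgb2 (NM_008404), the beta chain shared by this family of leukocyte integrins, was at 3.10, 3.04 and 2.70 in the control group, against 3.40, 3.70 and 3.17 with PGC-1α. The groups did not overlap, and the log2 fold change of 0.48 (95% interval 0.05 to 0.90) missed the threshold (limma adjusted p = 0.057). It passed in 8 alternatives, among them without overexpression replicate 3 (0.60, limma adjusted p = 0.034), and with 1 probe for each gene (adjusted p = 0.047). After quantile normalization it was 0.03 (95% interval -0.40 to 0.47, limma adjusted p = 0.90). The slides gave 0.48 and 0.47. Within an array the first Itgam probe exceeded Itgb2 by 1.91 ± 0.23 (SD, n = 3) and 2.18 ± 0.20 (SD, n = 3) in the groups (exact permutation test, two-sided p = 0.3). The alpha chains that pair with Itgb2 in other leukocyte integrins did not pass the test, with 0.19 for Itgal and 0.06 and -0.04 for the probes of Itgax, and Itgad was not above background on any array.

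**Figure D3:**
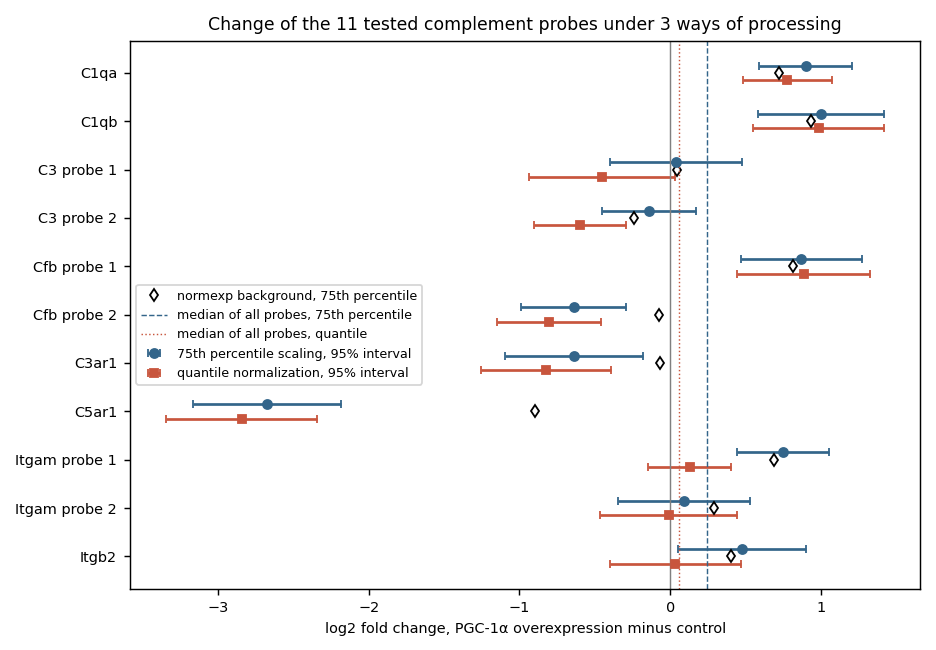
Log2 fold change, PGC-1α overexpression minus control (horizontal axis), of the 11 tested complement probes, with 95% intervals after scaling to the 75th percentile (blue circles) and after quantile normalization (red squares), and values with normexp background correction (open diamonds). Dashed and dotted lines mark the medians of all probes, 0.25 and 0.06. C5ar1 stands at -2.68 and -2.84, and the probes of C3, the first probe of Itgam and that of Itgb2 lie further left with quantile normalization.

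The other genes of the pathway were taken as a list of 46 genes with 66 probes, grouped by role, of which 40 probes of 30 genes were tested. Of these, 17 passed upward, 6 downward and 17 did not pass, a share of 57.5% beside 53.8% over all probes. Their median log2 fold change was 0.37 beside 0.25, and after quantile normalization 0.19 beside 0.06, with 13 higher and 4 lower, beside 21.8% and 19.8% of all probes. The groups did not overlap in 28 of the 40, beside 63.6% of all probes.

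In the classical pathway 3 of 9 tested probes were higher and 2 lower, and after quantile normalization 3 higher and 0 lower. C4a and C4b, closely related genes whose probes may share signal, rose, C4a 2.14-fold (limma adjusted p = 0.0017) and C4b by 1.09 on the log2 scale (adjusted p = 0.0032), and the second C4b probe by 0.53. Whether the C4a signal reflects working C4 was not tested. C1rb, a protease that binds C1q, was lower in 1 of its 2 probes (-0.36, adjusted p = 0.049, and -0.33, adjusted p = 0.085, after quantile normalization), and the probes of C1s1 (-0.13) and C1s2 (-0.31) did not pass. In the lectin pathway 3 of 7 probes were higher and none lower. Mbl1, a mannose-binding lectin, rose by 1.00 (limma adjusted p = 0.0012), and 2 probes of the protease Masp2 rose by 0.78 and 0.74 while another was at -0.75 without passing.

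Apart from the members C3 and Cfb, the alternative pathway had all 4 tested probes, of 3 genes, higher, with a median of 0.79. Over all probes 35.4% passed upward. After quantile normalization 3 were higher and 0 lower. Cfp encodes properdin, which stabilizes the convertase that contains factor B, and its probes rose by 0.79 (limma adjusted p = 0.0024) and 0.68. Cfd, the protease that cleaves factor B, rose 2.14-fold (limma adjusted p = 0.0017). The inhibitor Cfi rose by 0.80 on the log2 scale (adjusted p = 0.019), but did not pass after quantile normalization (0.56, adjusted p = 0.052). Both were well above background on 2 of 3 control arrays. Both thus met the filter only through the PGC-1α group, where they were higher. In the terminal pathway 3 of 9 probes could be tested. C8g fell by 1.46 (limma adjusted p = 5.3e-04), C9 rose by 0.73 (adjusted p = 0.0061) and C7 was at 0.46 without passing, while Hc, which encodes C5, was not above background on any array.

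Among the regulators, which protect host cells from complement, 5 of 10 tested probes were higher and 1 lower, and after quantile normalization 3 higher and 1 lower. Cd59a rose in both its probes, by 0.85 (limma adjusted p = 0.0026) and 0.69, and 1 of 2 probes of Cr1l fell by 0.39. Cd46 rose by 1.14 in 1 of 3 probes, the others being at background. That probe was itself dim, with control intensities of 16.9 to 27.2 and 2 of 3 control arrays well above background. It met the filter only through the PGC-1α group, where it was higher. The receptors and binding proteins had 2 of 5 probes higher and 2 lower, and after quantile normalization 0 higher and 2 lower. Besides C5ar2, Cd93 fell by 1.03 (limma adjusted p = 0.001). C1qbp was 0.57 (adjusted p = 0.0089), but 0.01 after quantile normalization (adjusted p = 0.98). The other higher probe, of Cr2, a receptor of C3 fragments, was named after its values were seen, and went from 0.76 (limma adjusted p = 0.030) to 0.53 (adjusted p = 0.064).

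**Figure D4:**
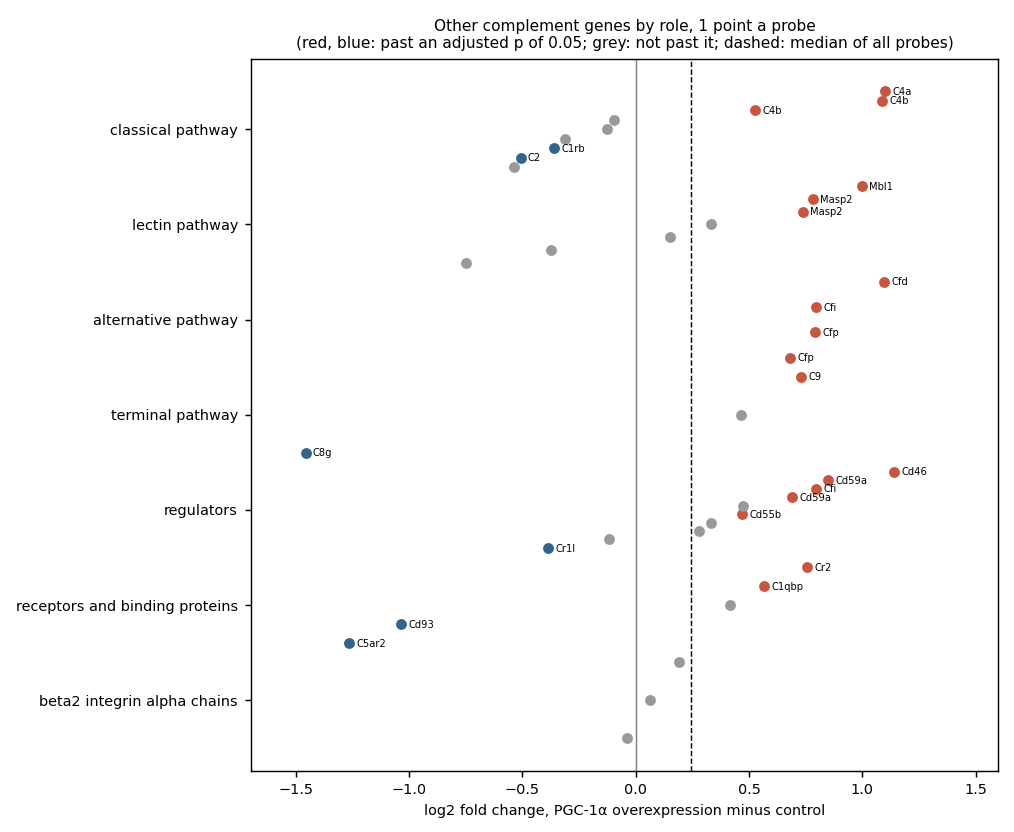
Log2 fold change, PGC-1α overexpression minus control (horizontal axis), of the tested probes of the other complement genes, by role (vertical axis), with 1 point a probe. Red points passed upward, blue points downward, grey points did not pass, and the dashed line marks the median of all probes at 0.25. The 4 probes of the alternative pathway lie to the right of it, and C8g, C5ar2 and Cd93 have the lowest values.

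Across the 6 arrays the members fell into patterns that mostly follow the groups. Pearson's r between the first probes of the genes was 0.97 for C1qa and C1qb, 0.99 for C1qb and Cfb, 0.88 for C3ar1 and C5ar1, and -0.97 for C1qa and C5ar1. C3 had an r of 0.24 with C1qa and 0.02 with C5ar1. These are descriptions over 6 arrays that share the group difference and the scaling of each array. Of 16613 other genes, those with the highest r were Ubox5 and Thap1 for C5ar1 (1.00 for each after rounding), 4931428F04Rik, A530006G24Rik and Postn for C1qb, and Foxq1, Exoc6b and Znrf4 for C1qa.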

How the data were processed

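RNA of BV2 cells was hybridized to 6 1-colour Agilent arrays, 1 sample per array. Groups and replicate numbers come from the sample titles, which do not name the slide. The labels give Cy3 as the dye in one field and Cy5 in another, and the files hold the green channel. The authors deposited the intensity of each spot from Agilent Feature Extraction 11.5.1.1, background-subtracted and spatially detrended within the array, with no normalization between arrays, and a log2 table that covers some of the probes, normalized in GeneSpring by a procedure that is not stated. Its scale follows the log2 intensity of each array (Pearson's r 0.99878 to 0.99984 across probes), it shows no centring of genes, and its column medians are 8.2934 to 8.2943.

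Each intensity was put on the log2 scale and set against the 75th percentile of 59305 spots other than controls. Spots marked as outliers (149 to 1590) were left out. Between 41122 and 45165 spots were well above background. Through their accession, 33767 of 56605 probes (59.7%) matched 1 gene in RefSeq (GRCm38.p6). The array design names an older build, so the only coordinates given are those of the RefSeq sequences before gene starts, in GRCm38.p6. Testing a probe required values for 2 or more arrays per group and a signal well above background on all 3 of at least 1 group. Each probe is a feature. The groups were compared by lmFit and eBayes of limma 3.58.1 (R 4.3.3), two-sided. Adjustment over the 38919 probes followed Benjamini and Hochberg. Pairs of probes were compared by exact permutation over arrays. The steps were tested on simulated data. Python 3.11.15, numpy 2.4.6, pandas 2.3.3, scipy 1.17.1 and matplotlib 3.10.9 were used.

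The members, gene lists, motifs and alternatives were chosen with earlier results of these data known, and the 6 pairs of probes after the values were seen. Named besides the members are up to 3 genes per role with the largest change among probes that passed without overlap of the groups, other genes of the list where a group is described, and the 3 genes most like a member, of which 1 is not reported here. Slide and scan coincide, and both slides hold both groups. The number of arrays limits the precision, and for dim probes the background does. Alternatives were quantile normalization, normexp with an offset of 50 on the median signals with either scaling, the median, other filters, 1 probe per gene, slide or replicate number as a block, slide 1 alone, a variance trend, array weights, the authors' log2 values and each array left out.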

Additional observations from a re-analysis of the deposited data

How the results depend on the processing

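The number of member probes past the threshold, 7, was 6 to 9 in the alternatives and 6 to 7 with each array left out. The count over all probes, 20943, was 9633 with 1 probe for each gene, by construction, and 15583 to 21564 with each array left out. The other complement probes past the threshold, 23, were 14 with normexp and quantile normalization and 16 to 23 with each array left out. The share of higher probes among those past the threshold was 65.9%. Quantile normalization made it 52.4%, normexp 76.8%, both of these together 48.7%, and it was 56.6% with the median and 52.7% with the authors' values. The sign of the first C3 probe turned after quantile normalization (-0.45), with normexp and quantile normalization (-0.39), the median (-0.07), slide 1 alone (-0.0054), array weights (-0.091), the authors' values (-0.47) and without control replicate 3 (-0.11) or overexpression replicate 2 (-0.096), never past the threshold, with -0.11 to 0.15 over the arrays left out. That of the second Itgam probe turned after quantile normalization (-0.010), with the median (-0.017), the authors' values (-0.0014) and without control replicate 3 (-0.036), with -0.036 to 0.25 over the arrays left out. The second C3 probe, not past the threshold otherwise, passed as lower in 4 alternatives, quantile normalization, normexp with quantile normalization, the authors' values and array weights (limma adjusted p = 0.017). The cause was not tested. C1qa, C1qb, the first Cfb probe and C5ar1 kept direction and call in every alternative in which they were tested.

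The replicate number as a block gave 22803 probes, 8 of them members, with Itgb2 added (limma adjusted p = 0.025), and 8 with the slide as a block. Deviations of same-numbered arrays from their group means correlated with -0.21, 0.003 and 0.59 over 37314 probes, the last for the arrays on slide 2. Arrays with different numbers gave -0.52 to 0.53. Such deviations cancel within a group of 3 arrays, so these values cannot decide whether the numbers pair the arrays. The block was kept as an alternative. Dim probes, C1qc above all, are limited by the background.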
